A study of Mus musculus with 7 samples.

Results

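Basal cells of the seminal vesicle epithelium were described from single-cell RNA sequencing of the mouse seminal vesicle, the gland that makes most of the seminal fluid. Basal cells lie on the basement membrane beneath the tall secretory cells. They hold on to that membrane through hemidesmosomes, which join the laminin-binding integrin α6β4 to an inner network of keratins, and they hold on to their neighbours through desmosomes. In stratified and pseudostratified epithelia the transcription factor p63 and the keratins 5 and 14 mark this layer, which serves in several of these tissues as a store of progenitor cells.

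The cells were chosen by a rule on measured counts. A cell had to carry at least 500 detected genes, at most 10% mitochondrial UMIs (unique molecular identifiers, 1 per captured transcript) and at least 2 of 4 markers, Krt5, Krt14, Krt15 and Trp63. It also had to carry less than 30% of its UMIs on Svs2, Svs4, Svs5 and Svs6 (seminal vesicle secretory proteins), less than 0.5% on Tgm4 and Pbsn (prostate secretory proteins) and no UMI of Ptprc or Pecam1 (pan-leukocyte and endothelial genes). This left 1839 of the 53352 deposited cells of the series, or 1839 of the 22065 cells that passed the first pair of limits in the 5 libraries used. These 12 genes are therefore described with no test.

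The cells came from 21 male wild type mice. The aging pool held 10 C57BL/6J mice on chow, with 2 of 3 months, 2 untreated and 2 treated with rapamycin at 20 months, and the same at 28 months (mice Y1 and Y2, 20C1 to 20R2 and 28C1 to 28R2). The diet pool held 8 FVB/NJ mice of about 3 months, 2 each on a control diet (AIN-93G), a high fat diet, a low protein diet and caloric restriction, in which singly housed animals received a set share of what a freely feeding animal ate (Ctrl, HF, LP and CR). The other 3 FVB/NJ mice, also of about 3 months, were each sequenced in a library of their own. Of these, 1 was fed AIN-93G, 1 high fat and 1 low protein (single C, single HF and single LP). In the pools each cell carried a tag of its mouse. Strain, chow, pool and most of the age range changed together between the pools and cannot be told apart. Nothing in the labels ties tissue or library preparation of the mice in a pool to separate days, so p-values measure the spread between these mice.

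Of the 4 markers, Krt14 (chr11:100203162-100207548, GRCm38) was carried by 93.7% of the basal cells, Krt5 (chr15:101707070-101712898) by 83.1%, Krt15 (chr11:100131758-100135928) by 65.3% and Trp63 (chr16:25683763-25892102), the gene of p63, by 19.0%. There were 855 cells with 2 of the markers, 844 with 3 and 140 with all 4. Just outside the rule lay 624 cells with 1 marker that met every other limit. On the Svs limit, 35 members carried 20 to 30% Svs UMIs and 37 cells with 30 to 40% were kept out. Another 139 cells were kept out by Tgm4 and Pbsn alone and 109 by Ptprc or Pecam1 alone. Of the 139, 78 were in the aging pool, 61 in the diet pool and 0 in the single libraries. In CPM (a gene's UMIs relative to all UMIs of the cells, here pooled over a set), Krt14 stood at 2390 in the aging pool, 1820 in the diet pool and 3530 in the single libraries, and Trp63 at 35.6, 44.5 and 182. Cells kept apart by Ptprc or Pecam1, which should lack these markers, carried at least 2 of the 4 in 2.05% (aging pool, median 3412 UMIs), 4.53% (diet pool, 3190 UMIs) and 11% (single libraries, 1231 UMIs).

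The depth differed between the sets of mice. The median basal cell held 6475 UMIs and 2043 genes in the aging pool, 5215 UMIs and 1746 genes in the diet pool, and 1195 UMIs and 688 genes in the single libraries. In the single libraries the median over all passing cells of a mouse was 9974 to 12540 UMIs, while cells with Ptprc or Pecam1 were as shallow as basal cells, with a median of 1231. Basal UMIs per mouse ran from 55194 to 265720 in the aging pool, from 98812 to 1970313 in the diet pool and from 290257 to 500906 in the single libraries. No cell barcode of a basal cell was shared between mice of 1 pool or between libraries.

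The label was checked on genes that the rule did not use. Krt17, a keratin of basal and activated epithelia, stood at 5030 ± 1590 CPM (SD, n = 10) in the aging pool, 2690 ± 1160 (n = 8) in the diet pool and 4010 ± 456 (n = 3) in the single libraries. In pooled secretory cells of the same sets it stood at 19.1, 15.7 and 2.09 CPM. Hemidesmosome and anchoring genes had moderate levels in all 3 sets: in the diet pool Itga6 stood at 309 ± 53.3 CPM, Itgb4 at 95.9 ± 21.6, Col17a1 at 165 ± 71.4 and Dst, the plakin that ties integrin to keratin, at 481 ± 119. The laminin chains Lama3 and Lamb3 stood at 50.4 ± 20.4 and 96.5 ± 48.7 CPM in the same 8 mice. These genes went with the label in each set.

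**Figure D1:**
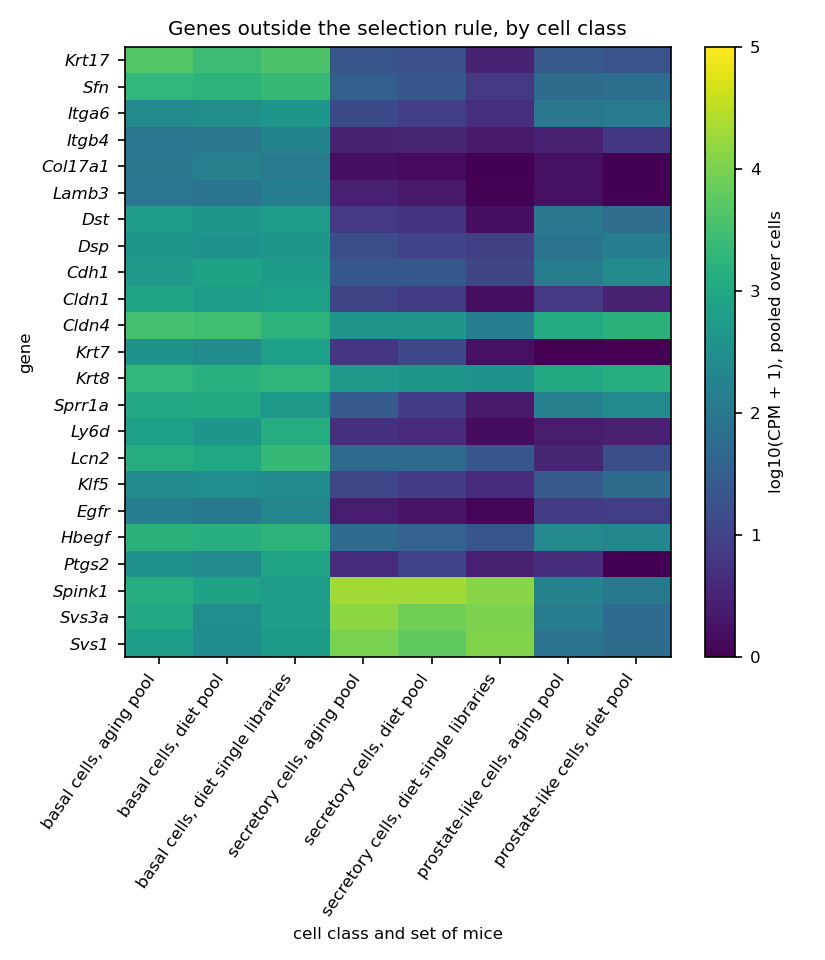
Levels of 23 genes outside the selection rule (rows) in basal, secretory and prostate-like cells of each set of mice (columns), as log10 of CPM plus 1 with the UMIs of all cells of a column pooled, so that colours carry no error. Krt17, Sfn, Col17a1 and Lamb3 are brightest in the 3 basal columns, and Spink1, Svs3a and Svs1 are brightest in the secretory columns.

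Transcripts of other cells were also counted in these cells. All but 1 of the 1839 cells carried at least 1 UMI of the 4 Svs genes, and Svs5 was the most abundant gene at 19230 ± 16300 CPM (n = 21, from 4716 to 71200). It stood at 85500 to 127000 CPM in the passing cells outside the basal, secretory and prostate-like classes as defined here. These include the 37 cells with 30 to 40% Svs UMIs that the rule kept out. The value is therefore not one of cells of other types alone. The next most abundant genes were Malat1 (a nuclear RNA), Actg1 (an actin), Svs2 and Mt1 (a metallothionein), at 13740, 12780, 11030 and 9209 CPM. The fibroblast list summed to 826, 1010 and 224 CPM in the aging pool, the diet pool and the single libraries, of which Dcn, a proteoglycan gene, made up 776, 929 and 143, and the other 5 genes stayed at or under 229 CPM in every mouse. The endothelial, macrophage, lymphocyte and Schwann cell lists reached at most 99.9, 201, 210 and 43.4 CPM in a mouse. The smooth muscle and pericyte list reached 2700 CPM in mouse CR1, against 31.5 to 411 in the other 7 mice of that pool. The urothelium list reached 3340 CPM in mouse 28C2 and the epididymis list 4880 CPM in mouse 28R1, of which Crisp1 made up 4870. Hemoglobin summed to 5290, 3770, 1470 and 522 CPM in LP2, CR2, Ctrl1 and CR1 and to at most 16.0 CPM in the other 17 mice. In all, 157 cells (8.54%) carried 2 or more genes of a fibroblast, muscle, endothelial or immune list, among them 28 of the 104 cells of CR1. Doublets within a mouse were not called, and the part of these transcripts in the results below was not tested except where values without those cells are given.

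**Figure D2:**
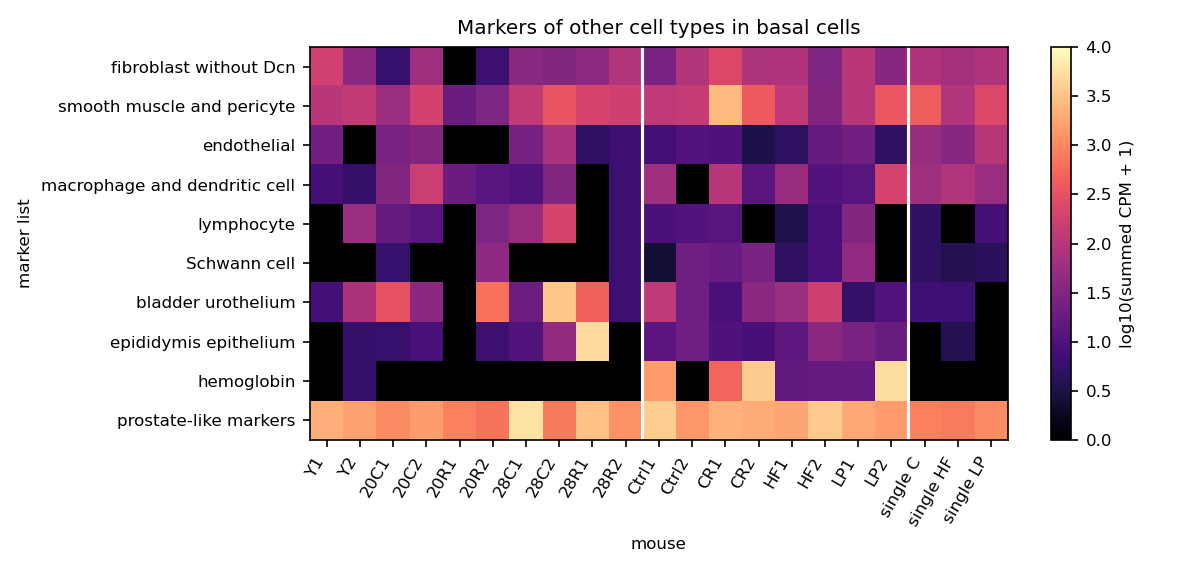
Summed level of 10 marker lists of other cell types (rows) in the basal cells of each of the 21 mice (columns, with white lines between the aging pool, the diet pool and the single libraries), as log10 of the summed CPM plus 1. The brightest cells outside the prostate-like row are the smooth muscle list in CR1, the urothelium list in 28C2, the epididymis list in 28R1 and hemoglobin in CR2 and LP2.

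The first question was how large a share of the dissociated cells the basal cells made up. They were 3.61% ± 1.37 of the passing cells in the aging pool (n = 10, from 1.11% in 28C2 to 5.35% in Y1), 14.8% ± 6.18 in the diet pool (n = 8, from 7.42% in CR2 to 27.4% in Ctrl1) and 7.14% ± 1.25 in the single libraries (n = 3). The lowest mouse of the diet pool lay above the highest of the aging pool. The difference of -11.2 percentage points had an exact two-sided permutation p of 4.57e-05, the smallest that 43758 assignments can give, and 0.000137 after adjustment over the 3 share tests. With every cell thinned to 1000 UMIs before the rule was applied, the means were 2.58% and 10.1% and the ranges overlapped, from 0.624% to 4.0% in the aging pool and from 3.86% to 18.7% in the diet pool. With basal, secretory and prostate-like cells alone as the denominator, the difference was -40.4 percentage points (exact permutation p = 4.57e-05). The limit on Tgm4 and Pbsn alone kept out 78 cells beside 171 members in the aging pool and 61 beside 823 in the diet pool. It thus lowered the share more in the aging pool, and shares without this limit were not tested. Shares in a cell suspension depend on what the digestion and the density gradient release, and that part was not tested.

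Within the aging pool the share did not follow age beyond the spread between mice. The 3-month mice had 5.35% and 3.66%, the untreated mice 5.26% and 3.29% at 20 months and 2.62% and 1.11% at 28 months, and the rapamycin mice 2.05% and 3.97% at 20 months and 4.26% and 4.55% at 28 months. Pearson's r with age was -0.384 (permutation p = 0.271, adjusted 0.406, n = 10) and Spearman's rho -0.311 (permutation p = 0.385). Without the 2 mice farthest from the median age r was -0.195 (permutation p = 0.659). With basal, secretory and prostate-like cells alone as the denominator, r turned to 0.241.

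Among the diets, caloric restriction had the lowest shares, 9.34% and 7.42%, against 16.7% and 15.6% on high fat, 16.8% and 14.0% on low protein and 27.4% and 10.9% on the control diet. The F statistic over the 4 diets was 1.17 (exact permutation p = 0.524, adjusted 0.524, smallest possible 0.00952). The control mice spanned the high fat and low protein mice, and both restricted mice lay below both controls. Without Ctrl2, which gave 19 basal cells, F was 37.4 (exact permutation p = 0.0286), and without Ctrl1 it was 12.0 (exact permutation p = 0.0667), so F moved with either control mouse.

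**Figure D3:**
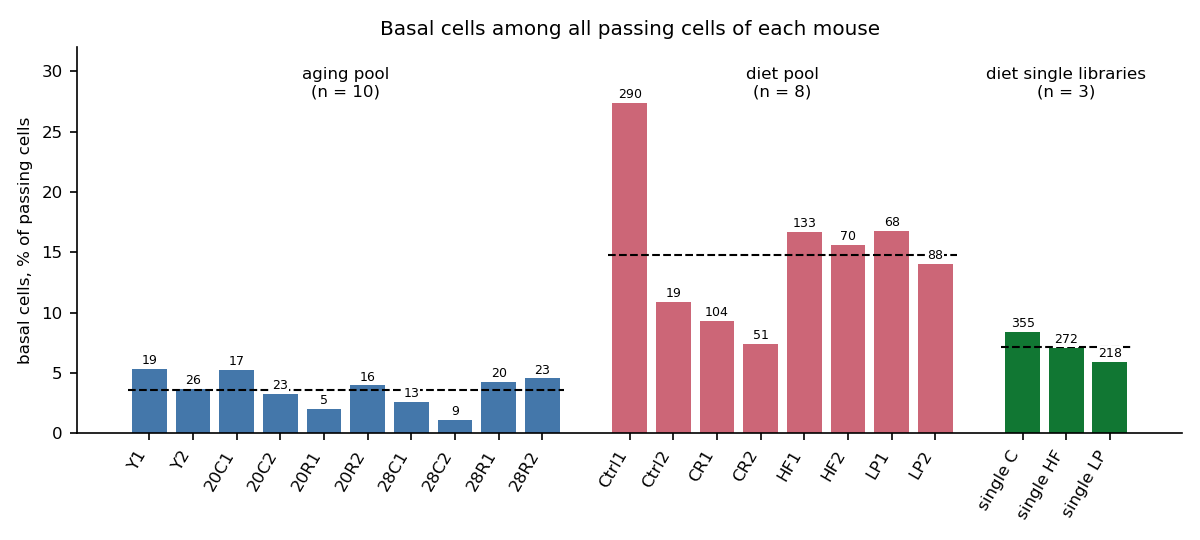
Basal cells as a percentage of all passing cells in each of the 21 mice (bars, with the number of basal cells above each and a dashed line at the mean of the set). All 8 mice of the diet pool lie above all 10 mice of the aging pool, Ctrl1 is the highest at 27.4%, and the 2 restricted mice are the lowest of their pool.

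The genes that marked basal cells were then set beside those of the secretory cells of the same mouse, defined by at least 30% Svs UMIs and fewer than 2 basal markers, in the 19 mice with at least 10 cells of both. Because the rule chose both sides, these ratios are descriptions. Of 2605 genes with a mean of at least 50 CPM on a side, 84.4% were higher in basal cells in every mouse and 1.31% were lower in every mouse, and the median log2 ratio was 2.02. Svs5 alone took 246000 to 337000 CPM of the secretory cells in the 3 sets. With those products left out of the totals, 987 of 3150 genes were higher in every mouse and 442 lower. Beside the prostate-like cells (at least 2% Tgm4 and Pbsn, 8 mice), 27.0% of 3227 genes were higher in every mouse and 23.7% lower, with a median log2 ratio of 0.03.

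Krt17 had a median log2 ratio of 7.40 (3930 ± 1720 CPM in basal and 16.7 ± 17.1 in secretory cells, n = 19). F3, the tissue factor that starts blood coagulation, followed at 6.31 (1450 ± 816 and 9.76 ± 9.63 CPM), Apoe, the lipid carrier apolipoprotein E, at 6.16 (6590 ± 3380 and 85.0 ± 79.2 CPM) and the calcium-binding S100a6 at 6.06. Sfn (14-3-3σ) stood at 5.92, the matrix glycoprotein gene Thbs1 at 5.81, the heparan sulfate carrier Sdc4 at 5.76, the cornified envelope gene Sprr1a at 5.69 and Timp3, an inhibitor of matrix proteases, at 5.62. Palld and Tpm1, which organise actin, had 5.61 and 5.60, and the tight junction gene Cldn1, the ion pump modulator Fxyd3, the surface protein Ly6d and S100a10 closed the 15 with 5.57, 5.56, 5.45 and 5.42. All 15 were higher in basal cells in 19 of 19 mice, also with the secretory products left out, where their median log2 ratios ran from 4.30 to 6.20.

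Attachment genes were counted as groups, and only their counts beside prostate-like cells lay well above the share of all genes. All 14 of the compared hemidesmosome and basement membrane genes were higher in every mouse (median log2 ratio 3.53), as were 7 of 7 desmosome and adherens junction genes (3.42) and 12 of 12 other basal markers (3.47), where 84.4% of all genes were. The ratio of 1 of them, Cd151, was -0.0256 on the log2 scale with the products left out. Beside the prostate-like cells the counts were 12 of 14 (with 1, Col4a6, lower in every mouse), 6 of 7 and 11 of 11, where 27.0% of all genes were. Desmoplakin (Dsp) stood at 435 ± 187 CPM in the aging pool, E-cadherin (Cdh1) at 486 ± 151 and Nectin1, a nectin cell adhesion gene, at 130 ± 54.7.

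The luminal keratins were not absent from basal cells. Krt8 stood at 2040 ± 703, 1510 ± 309 and 1860 ± 214 CPM in the 3 sets and Krt18 at 2710 ± 837, 2080 ± 315 and 1780 ± 99.3. Krt18 was above the secretory level in all 19 mice as counted and in 6 of 19 with the secretory products left out. Krt7, a simple epithelium keratin, kept a log2 ratio of 3.48 under that scaling (19 of 19 mice). Claudins differed by member: Cldn4 stood at 3170 ± 872, 3040 ± 573 and 1730 ± 135 CPM, Cldn3 was lower than in secretory cells in 17 of 19 mice and lower than in prostate-like cells in 8 of 8.

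Of 17 transcription factors 12 were higher than in secretory cells in every mouse (median log2 ratio 1.92, where that of all genes was 2.02), while 84.4% of all genes were. Of 19 compared with prostate-like cells 5 were higher and 6 lower in every mouse (median 0.34, where that of all genes was 0.03), against 27.0% and 23.7% of all genes. Klf5 and Sox4, named here after their values were seen and known from basal layers and progenitors, had log2 ratios of 4.12 and 3.70 beside secretory cells (3.12 and 2.62 with the secretory products left out) and 2.61 and 3.31 beside prostate-like cells. Gata2 lay on the other side, lower in basal cells in 18 of 19 and, beside prostate-like cells, in 8 of 8 mice.

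Of the signalling genes compared with secretory cells, 6 of 7 of the EGF and FGF family, 8 of 9 of the TGF-beta and BMP family, 3 of 4 of the Notch pathway, 1 of 2 of the Wnt pathway and 3 of 9 cytokines and chemokines were higher in every mouse, as 84.4% of all genes were. The median log2 ratios of these lists were 3.53, 2.48, 2.27, 2.24 and 2.47, and that of all genes was 2.02. Of the EGF family, the ligand Hbegf stood at 1550 ± 618, 1420 ± 398 and 1690 ± 321 CPM, the ligand Nrg1 at 141 ± 73.8, 71.1 ± 31.1 and 192 ± 25.6, the receptor Egfr at 152 ± 48.6, 114 ± 53.5 and 189 ± 22.4 and Errfi1, an inhibitor of that receptor, at 833 ± 260, 888 ± 167 and 1320 ± 140. All 4 were higher than in secretory cells in 19 of 19 mice, as 84.4% of all genes were, and their log2 ratios were 3.32, 3.24, 3.39 and 2.32 with the secretory products left out. They were higher than in prostate-like cells in 8 of 8 mice, as 27.0% of all genes were. Of the TGF-beta family, Tgfb1 and its receptor Tgfbr2 stood at 119 ± 38.0 and 61.5 ± 25.4 CPM in the diet pool. Of the Notch ligands, Jag2 stood at 45.4 ± 12.5 and Dll1 at 44.9 ± 20.5 CPM in the same mice, and the ligand Wnt4 at 95.1 ± 35.6. In the chemokine list, Cxcl1 stood at 212 ± 99.9, 154 ± 57.1 and 254 ± 44.7 CPM, Cxcl16 at 182 ± 69.4, 219 ± 31.0 and 263 ± 30.1, and Ccl2 varied most, at 266 ± 464 CPM in the aging pool. Lcn2, an iron-sequestering defence protein, stood at 1340 ± 352, 978 ± 292 and 2310 ± 160 CPM. Ptgs2, the inducible cyclooxygenase, stood at 409 ± 473, 265 ± 169 and 822 ± 96.1 CPM, with a log2 ratio of 4.20 beside secretory cells. Of 6 antigen presentation genes 3 were higher in every mouse (median log2 ratio 1.91, where that of all genes was 2.02). The class I genes H2-K1 and H2-D1 were above the secretory level in 19 of 19 mice (log2 ratios 3.50 and 3.03, and 1.90 and 1.22 with the products left out), while their partner B2m was below it in 19 of 19 (-1.54).

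Variation among the basal cells was read after each cell was thinned to 1000 UMIs, which kept 171 cells of the aging pool, 820 of the diet pool and 626 of the single libraries. The measure was the variance over the mean, taken within each mouse of at least 10 such cells and then combined. The secretory product Pate4 varied most in the diet pool, at 45.4, followed by Spink1 (29.6), Malat1 (16.4) and Mt1 (12.6). Sprr1a had 4.10, 6.91 and 7.15 in the 3 sets, Apoe 4.56, 5.07 and 5.09, and Krt17 7.42, 4.65 and 2.93. The stress genes Atf3 and Fos had 6.04 and 3.40, 2.97 and 3.71, and 4.08 and 4.44. Krt17 was detected in 80.1%, 76.1% and 86.7% of the thinned cells, Ly6d in 21.6%, 22.3% and 51.9% and Sprr1a in 31.6%, 28.2% and 15.3%. A separate thinning put Krt17 in 79.5%, 75.9% and 85.3% of basal cells, Ly6d in 25.1%, 20.7% and 53.7% and Sprr1a in 31.0%, 28.8% and 15.5%. In that thinning, cells with Ptprc or Pecam1 carried Krt17 in 2.43%, 3.67% and 17.0%, Ly6d in 6.55%, 0.592% and 9.17% and Sprr1a in 0.91%, 1.66% and 4.8%. These lay below the basal share for each gene in each set. In the same separate thinning Apoe was detected in 92.4%, 89.5% and 99.2% of the basal cells and in 52.3%, 45.7% and 50.7% of those with Ptprc or Pecam1. A share of cells with a UMI depends on the level of the gene as well as on how many cells use it.

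The diet comparisons asked what each diet changed in the basal cells. The 11 FVB/NJ mice of the diet pool and the single libraries were fitted together with edgeR's quasi-likelihood test, with a term for pool or single library, and 6547 genes were tested against the 3 control mice with Benjamini-Hochberg adjustment. High fat (3 mice) and low protein (3 mice) gave no gene past an adjusted p of 0.05 (0% of 6547 for both). At an unadjusted p under 0.05 there were 141 and 191 genes, and DESeq2 gave 0 and 0. Caloric restriction (2 mice, both in the pool) gave 38 genes higher (0.58% of those tested) and 87 lower (1.33%), 125 in all (1.91%). The median log2 change of all genes was 0.03 under restriction, with a median standard error of 0.349.

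Apoe fell most clearly. It stood at 1850 and 1450 CPM in CR1 and CR2, at 4690 and 6840 in the control mice of the pool, at 5520 and 5410 on high fat and at 5810 and 6370 on low protein, and at 13900, 12400 and 13000 in the single libraries. Both restricted mice lay below all 9 others. Apoe is named for its small p, and in 8.51% of the 6547 genes tested both lay below the other 6 of the pool. Against the control mice Apoe (chr7:19696109-19699188) fell by 1.81 on the log2 scale (SE 0.144, edgeR adjusted p = 7.62e-06), while its log2 change was -0.08 (SE 0.117) on high fat and 0.04 (SE 0.117) on low protein, comparisons that share these controls. With the cells carrying genes of another cell type left out (85 in the diet pool and 45 in the single libraries), the log2 change of Apoe under restriction was -1.62 (edgeR adjusted p = 1.13e-05).

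Some genes of the basal and squamous programme also fell. Of the 14 other basal markers tested, 3 fell and 0 rose (Krt17, Sfn and Col17a1), and of 8 suprabasal and squamous genes 2 fell (Krt16 and Ly6d), against 1.33% of all genes. Their median log2 changes were -0.63 and -1.29. Col17a1 passed narrowly (edgeR adjusted p = 0.0495) and no longer passed without TMM, which left 2 of the 14. Products of other cells moved in the same comparison: of 9 secretory products 3 fell (Svs3a, Dnase2b and Spink1, list median -1.54) and of 6 prostate-like markers 2 fell (Sbp and Spink1, list median -1.46). The summed lists overlapped. Secretory products stood at 27900 and 41400 CPM in CR1 and CR2 against 11500 to 45300 in the other 6 mice of the pool. Prostate-like markers stood at 2260 and 1990 against 1340 to 3820. Of 6 smooth muscle and pericyte genes 3 rose (Des, Tagln and Acta2, list median 3.63), and of 4 fibroblast genes 1 fell (Dcn) and 0 rose, with a list median of 2.18, where the median of all genes was 0.03. Dcn passed narrowly (edgeR adjusted p = 0.0493) and no longer passed without TMM. The part of these products in the other changes was not tested. Krt17 stood at 1490 and 1010 CPM in the restricted mice and at 2120 to 4610, median 3130, in the other 6 mice of the pool (log2 change -1.45, SE 0.238, edgeR adjusted p = 0.00501). Ly6d stood at 155 and 87.9 CPM against 233 to 658, median 543 (-2.03, SE 0.321, adjusted p = 0.00404), and Sfn at 1090 and 970 against 1670 to 2960 (-1.06, SE 0.184, adjusted p = 0.00731). The groups did not overlap for Krt17, Ly6d or Sfn, which are named here because they were called lower, and in 8.51% of the 6547 genes tested both restricted mice lay below the other 6. The junction genes Cdh1 and Cldn1 fell too, with log2 changes of -0.67 and -1.41, among 1 of 10 desmosome and adherens junction genes and 2 of 11 tight junction genes that passed, and the tight junction list had a median of 0.05, and 11 of the 14 other basal markers did not pass, among them Itga6 and Itgb4.

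The other genes with the smallest p among those that fell are given one by one. F3 stood at 546 and 547 CPM in CR1 and CR2 and at 1130 to 1540 in the other 6 mice of the pool (log2 change -1.34, SE 0.185, adjusted p = 0.00195 by edgeR). In the single libraries F3 was itself low, at 630 to 819 CPM. Hk2, the hexokinase that commits glucose to glycolysis, stood at 74.4 and 61.8 CPM against 174 to 425, median 263 (-1.89, SE 0.287, adjusted p = 0.00333). Plet1, a surface protein of epithelial progenitors, stood at 310 and 323 CPM against 652 to 961. Sult5a1, a sulfotransferase, stood at 40.3 and 28.5 CPM against 163 to 233, and Padi3, a peptidylarginine deiminase of keratinising epithelia, at 18.9 and 7.13 against 60.7 to 93.3. Fam107b, the kinase gene Mast4 and Ggct, an enzyme of glutathione breakdown, complete the 10, with log2 changes of -1.59, -1.71 and -2.73, and in the single libraries Fam107b and Ggct were as low as under restriction, at 148 to 207 and 6.89 to 16.0 CPM.

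The metallothionein genes Mt1 and Mt2 fell. Metallothioneins bind zinc and copper, and their genes are induced by metals and by glucocorticoids. Mt1 stood at 8930 and 5900 CPM in CR1 and CR2 and at 11600 to 15400, median 14400, in the other 6 mice of the pool (log2 change -0.94, SE 0.175, edgeR adjusted p = 0.0100). Mt2 stood at 1700 and 924 CPM against 3030 to 5020, median 3710 (-1.58, SE 0.244, adjusted p = 0.00349). In both genes, named because they were called lower, the groups did not overlap within the pool (8.51% of all genes tested separated this way), and the single libraries were low, at 4320 to 6610 and 1270 to 2020 CPM. The genes are neighbours on chromosome 8 and are read in the same direction. Their promoters, from 250 bases before to 50 bases after the start in RefSeq (GRCm38.p6, plus strand, Mt1 at chr8:94178839-94179138 and Mt2 at chr8:94172368-94172667), are shown because they carry the pattern TGCNCNC, searched on both strands. This pattern is looser than the metal response core TGCRCNC, where R is A or G, and the Mt2 matches TGCTCTC and GGGAGCA do not meet that core. Matches to the looser pattern are in capitals:

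Mt1: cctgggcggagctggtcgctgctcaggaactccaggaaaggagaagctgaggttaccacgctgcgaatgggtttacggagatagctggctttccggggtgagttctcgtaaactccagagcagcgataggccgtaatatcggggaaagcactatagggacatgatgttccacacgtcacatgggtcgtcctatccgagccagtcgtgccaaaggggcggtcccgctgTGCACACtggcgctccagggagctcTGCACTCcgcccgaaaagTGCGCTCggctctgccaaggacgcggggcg

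Mt2: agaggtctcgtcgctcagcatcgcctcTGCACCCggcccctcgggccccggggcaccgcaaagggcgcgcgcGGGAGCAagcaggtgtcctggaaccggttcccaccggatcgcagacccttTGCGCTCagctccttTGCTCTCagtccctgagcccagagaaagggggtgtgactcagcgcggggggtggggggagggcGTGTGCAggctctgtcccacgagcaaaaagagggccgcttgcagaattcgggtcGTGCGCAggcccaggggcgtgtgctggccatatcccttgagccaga

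Mt1 held 3 matches, all on the plus strand, and Mt2 held 3 on each strand. Of 32851 mouse promoters of this length, 51.0% held at least 1 match, 7.1% at least 3 and 0.225% at least 6. A match is a run of letters and not a shown binding site.

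The genes that rose under restriction included early response genes. Nr4a1, an early response nuclear receptor, stood at 521 and 844 CPM in CR1 and CR2 and at 190 to 251, median 203, in the other 6 mice of the pool (log2 change 1.84, SE 0.222, edgeR adjusted p = 8e-04). Egr1, an early growth response factor, stood at 845 and 1190 CPM against 374 to 623 (1.30, SE 0.186, adjusted p = 0.00258). Of the 25 immediate early and stress genes tested, 5 rose (Fos, Egr1, Ier2, Btg2 and Nr4a1) and 1 fell (Fosl1), where 0.58% of all genes rose, and the list's median log2 change was 0.57. This list summed to 29100 and 24900 CPM in CR1 and CR2 and to 20400 to 28000 in the other 6, so these groups overlapped, and how dissociation differed between mice was not tested. Spry1, which restrains growth factor receptors, stood at 125 and 102 CPM against 10.1 to 44.5 (1.94, SE 0.283, adjusted p = 0.00265), while Egfr fell from 103 to 223 CPM to 49.2 and 59.4 (-1.27, SE 0.281, adjusted p = 0.0278) and its ligand Hbegf had a log2 change of -0.85 (edgeR adjusted p = 0.0495). Dbp, a clock output factor, stood at 76.9 and 47.5 CPM against 15.5 to 22.4. In the single libraries, none of them restricted, Dbp stood at 134 to 172 CPM, Egr1 at 868 to 1120, Nr4a1 at 333 to 487 and Spry1 at 81.9 to 127, so only the pool mice separate by diet on these genes. They are named because they were called higher. The share of all genes in which both restricted mice lay above the rest of the pool was not counted. In the pool alone Dbp no longer passed (log2 change 1.56, edgeR adjusted p = 0.0639). It passed in 20 of the 22 settings tried, which include the fits without CR1 or CR2, from which no call is read. Its log2 change ran from 1.3 to 2.0 with a mouse left out. Insig1, a brake on sterol synthesis, rose by 1.78, the 1 member of 18 sterol and fatty acid genes to pass.

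Some of the genes that rose are known from other cells. Pate6 stood at 166 and 1010 CPM in CR1 and CR2 and at 1.97 to 13.5 in the other 6, a log2 change of 6.00 (SE 0.751, edgeR adjusted p = 0.000894), and CR2 was the higher mouse. Sparcl1, C1s2, Col6a1, Pcp4 and Tagln, genes of stroma and smooth muscle, had log2 changes of 3.94, 3.62, 3.61, 4.11 and 2.82. Tagln stood at 984 CPM in CR1 and 271 in CR2 against 5.91 to 104, as the smooth muscle list stood at 2700 and 411 CPM in these mice. With the cells carrying genes of another cell type left out, Pcp4 no longer passed (log2 change 2.90, edgeR adjusted p = 0.086) and Col6a1 and Sparcl1 were too low to test, while Tagln (2.35, adjusted p = 0.00311) and C1s2 (4.73, adjusted p = 0.00108) still passed. With all cells, Tagln no longer passed without Ctrl1 or Ctrl2, and C1s2, Col6a1 and Pcp4 no longer passed without Ctrl1. Leaving out CR1 or CR2 left 1 restricted mouse, with the spread taken from the other groups, so no call is read from those fits. With any mouse left out the log2 changes ran from 1.62 to 3.43 for Tagln and from 3.38 to 3.79 for C1s2. They ran from 2.67 to 4.04 for Col6a1 and from 2.69 to 4.67 for Pcp4. Sparcl1 no longer passed without Ctrl1 (0.117). In the fit without the cells carrying genes of another cell type, Egr1 no longer passed (log2 change 1.25, edgeR adjusted p = 0.0988). That change was close to its 1.30 with all cells. Nr4a1, Spry1, Apoe, F3 and Mt2 were among the genes still called in that fit. The count in the same fit was 82, of which 71 were among the 125. In the pool alone the count was 61, of which 56 were. Without Ctrl1, Ctrl2 or single C it was 54, 58 or 76.

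**Figure D4:**
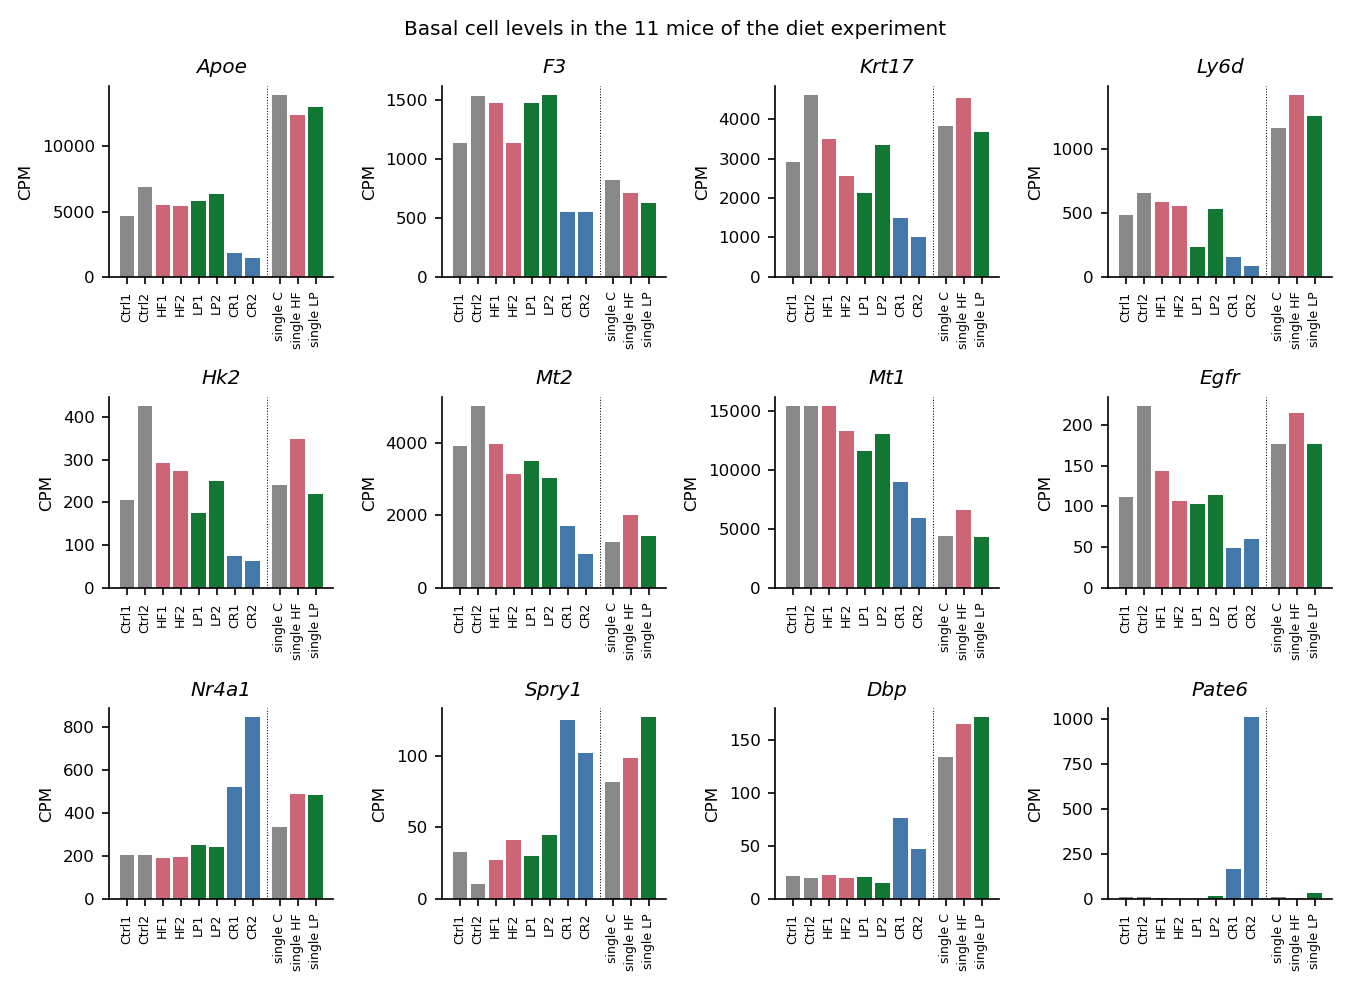
CPM of 12 genes in the basal cells of the 11 mice of the diet experiment (1 bar per mouse, summed over its basal cells, with a dotted line between the pool and the single libraries, and axes that start at 0). CR1 and CR2 are the lowest of the 8 pool mice for the first 8 genes and the highest for the last 4. All 12 genes were chosen among those called, and 8.51% of all genes tested were lowest in these 2 mice. For F3, Mt1 and Mt2 the single libraries lie nearer to the restricted mice than to the rest of the pool.

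The pools were compared over 8 mice each, after 20R1 and 28C2 were dropped for having fewer than 10 basal cells. Of 3013 genes tested with edgeR, 172 were higher in the aging pool (5.71%) and 147 lower (4.88%), 10.6% in all. Without TMM scaling the split was 95 higher and 258 lower, as the median log2 difference of all genes moved from 0.01 to -0.10, and directions are given relative to that median. The 20 genes named below kept their direction and passed under that scaling. The pools differ in strain, library, diet, rapamycin and most of the age range, and which of these a gene follows cannot be told apart.

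BC004004 stood at 122 to 375 CPM, median 172, in the 10 mice of the aging pool and at 20.2 to 38.0, median 28.3, in the 8 of the diet pool (log2 difference 2.66, SE 0.214, edgeR adjusted p = 7.39e-08). The chromatin remodeller Chd9 stood at 131 to 516 against 35.6 to 70.8 CPM (2.75, SE 0.239, adjusted p = 1.97e-07). Neither overlapped between the pools, as 0.365% of the genes tested lay higher in every mouse of the aging pool. Gstp1, a glutathione transferase with a close copy in the genome, stood at 137 to 488 against 64.2 to 119 CPM, and Ubb, which encodes polyubiquitin, at 1660 to 3020 against 746 to 1420. Abi1 (actin nucleation), Scarb2 (lysosome membrane), Ech1 (fatty acid oxidation), Nfkbib (an inhibitor of NF-κB), Csnk2a2 (a casein kinase subunit) and Eif3j1 (translation initiation) had log2 differences from 1.14 to 1.73. Eif3j2, a close copy of Eif3j1, went the other way, at 0 to 23.4 against 101 to 144 CPM (-2.74, SE 0.169, adjusted p = 1.04e-09). Reads of the 2 copies may have been divided by the counting, so both values are uncertain.

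The uncharacterised 1600014C10Rik stood at 0 to 15.1 CPM in mice of the aging pool, against 64.3 to 423 for the diet pool (log2 difference -4.74, SE 0.454, edgeR adjusted p = 8.66e-07), and at 319 to 417 in the single libraries of the same strain. The uncoupling protein gene Ucp2 stood at 68.1 to 266 against 406 to 723 CPM (-1.62, SE 0.218, adjusted p = 8.09e-05), and Nfe2l2, the antioxidant response factor NRF2, at 64.2 to 235 against 274 to 425 (-1.16, SE 0.163, adjusted p = 0.000123). None of these 3, named for their small p, overlapped, and 1.13% of the 3013 genes tested lay lower in all 10 mice of the aging pool than in all 8 of the other. Akr1b3, aldose reductase, stood at a median of 130 against 706 CPM, with 28C2 at 1720. Clec2d (a ligand of natural killer cells), Hmgn2 (nucleosome binding), Rpl38, Rps28 (ribosomal proteins) and Defb50, a prostate-like marker, were also lower, with log2 differences of -1.65, -0.97, -0.68, -0.74 and -2.61.

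Among other basal markers, Krt17 and Nrg1 were higher in the aging pool, with log2 differences of 1.04 and 1.21 (edgeR adjusted p = 0.00655 and 0.0194). Of 8 prostaglandin and glutathione genes 4 were higher (Gsto1, Gstm1, Gstm2 and Gsta4) and 1 was lower (Gpx1), against 5.71% and 4.88% of all genes. Without TMM 3 were higher and Gstm2 no longer passed. Of 8 secretory products 5 were higher (Svs1, Svs3a, Svs3b, Sva and Spinkl, by 1.75 to 2.81). Secretory products summed to 12400 to 176000 CPM per mouse of the aging pool, against 11500 to 45300 for the diet pool. Leaving them out of the totals gave 335 genes in place of 319, of which 304 were shared, and the part of their transcripts in the other differences was not tested. With the 3-month mice alone 37 genes passed, 30 of them among the 319.

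**Figure D5:**
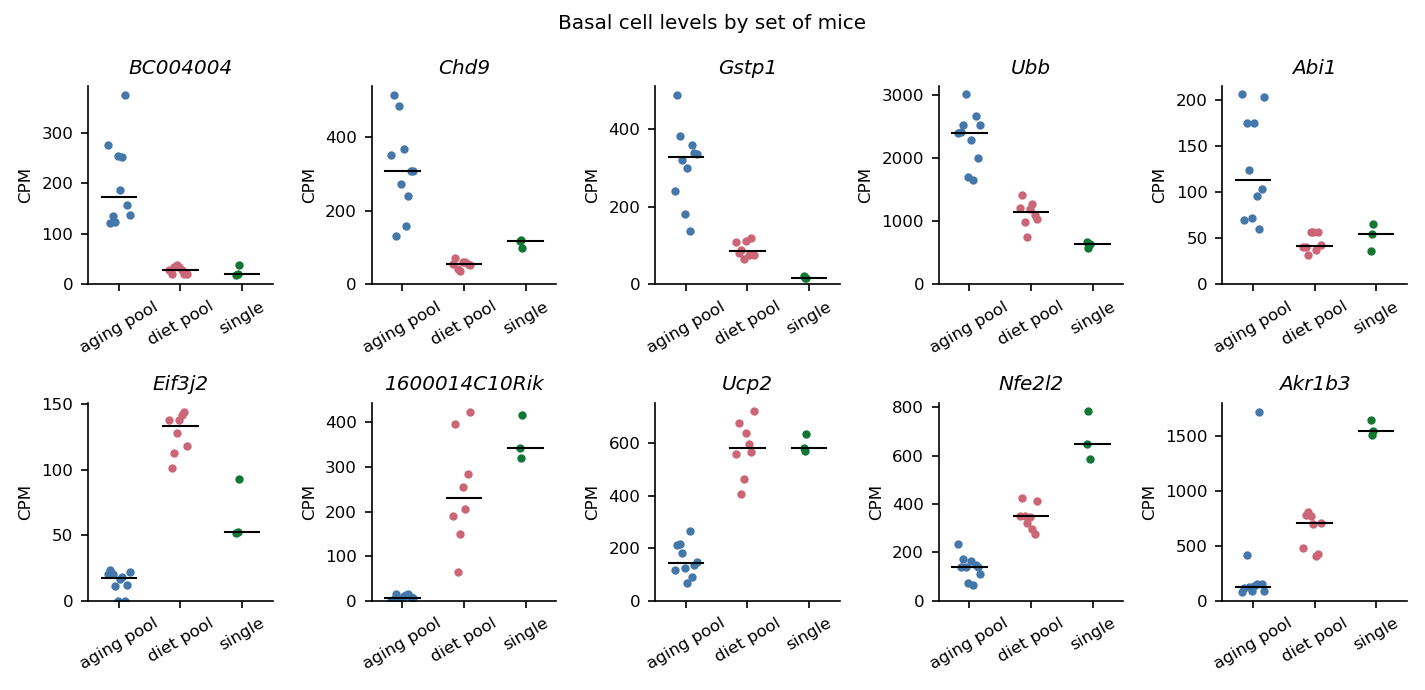
CPM of 10 genes in the basal cells of each mouse (points) in the aging pool (n = 10), the diet pool (n = 8) and the single libraries (n = 3), with a line at the median and axes from 0. The top row shows 5 genes higher in the aging pool and the bottom row 5 lower, and for BC004004, Chd9, Ubb, 1600014C10Rik and Ucp2 no point of the aging pool overlaps the diet pool.

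An interaction term asked which pool differences were unlike those of the other cells of the same 16 mice. Of 11273 genes, 20 had a higher difference in basal cells (0.177%) and 37 a lower one (0.328%), 0.506% in all. Gstp1 stood at 319 CPM in basal cells of the aging pool and 90.95 in those of the diet pool, against 61.01 and 68.25 in other cells (log2 interaction 1.70, SE 0.224, edgeR adjusted p = 0.00044). Ucp2 stood at 168.7 and 581.4 CPM in basal cells against 167.9 and 263.6 in others (-1.30, SE 0.172, adjusted p = 0.00044), and Akr1b3 at 158.6 and 636.6 against 355.0 and 369.8 (-2.19, SE 0.339, adjusted p = 0.00231). Of 12 unfolded protein response genes, 6 had a lower pool difference in basal cells and 0 a higher one (Hspa5, Hsp90b1, Creld2, Manf, Pdia6 and Calr, the chaperones and helpers of the endoplasmic reticulum), and the list's median was -0.99 where that of all genes was -0.04. Hsp90b1 stood at 528.1 and 1081 CPM in basal cells and at 818.0 and 798.0 in others (-1.17, SE 0.179, adjusted p = 0.00231). The mitochondrial chaperones Hspd1 and Hspe1 went the same way, by -1.31 and -1.16. With the secretory products left out of the totals 15 genes had a higher and 50 a lower difference, and without TMM 17 and 14, where the median of all genes moved to 0.15, 3 of the 12 unfolded protein response genes passed, and Hspd1 and Hspe1 did not. The makeup of the other cells differed between the pools, and its part was not tested.

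Age and rapamycin gave no call. Over 8 mice of the aging pool, with a term for each, 3262 genes were tested with edgeR and 0% passed an adjusted p of 0.05 for age and 0% for rapamycin (3 treated mice against 5). There were 112 genes for age and 140 for rapamycin at an unadjusted p under 0.05, and DESeq2 called 0 and 6. The median standard error was 0.0206 on the log2 scale per month of age and 0.404 for rapamycin. Krt17 stood at 8780 and 4360 CPM at 3 months, 3700, 4670 and 6100 in the tested mice of 20 months and 4360, 3710 and 5260 in those of 28 months (log2 change per month -0.02, SE 0.0122). Cdkn1a, a cell cycle inhibitor that rises in senescence, did not pass (log2 change per month 0.02, SE 0.0174, adjusted p = 0.985 by edgeR), and Cdkn2a, another, was at 0 in 20 of the 21 mice. Of the 5 senescence genes tested 0 passed.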

How the data were processed

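Single-cell 3′ libraries of 5 of the 7 deposited samples were used, 2 tag-multiplexed pools and 3 single-mouse libraries, holding 21 of the series' 23 mice. The deposited values were UMI counts per gene and cell made by the authors with Cell Ranger 6.0.1 (pools) and 3.1.0 (single libraries) on mm10, per the file headers. Tables were joined on 30406 shared genes by identifier. The mouse and condition of each pool cell came from the authors' demultiplexed tables. The 2 other mice were not analysed here, because cells passing the same rule there carried epididymis transcripts.

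Basal counts were summed per mouse, with at least 10 cells required. The 12 genes of the rule stayed in library sizes and were left out of tests. edgeR 4.0.16 in R 4.3.3 (TMM, its filter on low counts, quasi-likelihood F test, Benjamini-Hochberg adjustment, threshold 0.05) gave each fold change, with the standard error taken from the change and its F statistic. Shares were tested with exact permutation in SciPy 1.17.1, or 100000 resamples for age. Alternatives included DESeq2 1.42.0, other filters, scalings and marker minimums, and leaving out each mouse. The screen of cells carrying 2 or more genes of another cell type was added after seeing the data. The fits were tested on simulated data. Depth per mouse is given with the results, and intervals from UMIs would cover counting error only.

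The named genes were, per comparison, the 10 with the smallest p in each direction among those past the threshold, and the 15 with the largest median ratio beside secretory cells. The 39 gene lists were described by counts and medians. The members and lists were chosen with earlier results of these data known. Some results for single genes are not reported here.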

Additional observations from a re-analysis of the deposited data

Results flagged for a closer look

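Dixon's criterion was applied in groups of 8 or 10 mice. Its nominal rate of about 1 in 20 is for normally distributed values. Many groups here were not of that kind, as the hemoglobin and Schwann cell lists were at 0 in most mice of the aging pool. The count of flagged groups is therefore not compared with chance. By this criterion, 16 of 68 groups tested held a mouse standing apart from the others. In the aging pool these were the fibroblast list without Dcn in Y1 (179 CPM), the endothelial (74.9), lymphocyte (210) and urothelium (3340) lists and Akr1b3 (1720) in 28C2, the macrophage list in 20C2 (158), the Schwann cell list in 20R2 (39.7), the epididymis list in 28R1 (4880), hemoglobin in Y2 (4.69) and the prostate-like list in 28C1 (6010). The mouse 28C2 had 9 basal cells. In the diet pool these were the basal share of Ctrl1 (27.4%), the fibroblast list without Dcn (229 CPM) and the smooth muscle list (2700 CPM) in CR1, the lymphocyte list in LP1 (29.7 CPM), and the highest mice for Nfkbib (81.0 CPM) and Defb50 (2420 CPM).

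The difference between the pools was unlike that of the other cells of the same mice, by edgeR's interaction term, for 20 genes in the higher direction and 37 in the lower.

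In the libraries of the other 2 mice, 2364 and 1878 cells passed the same rule. The epididymis list summed to 8290 CPM in them in the young mouse and 23100 CPM in the old one, with Gpx5 its most abundant gene at 5500 and 13200 CPM, while Svs5 stood at 3.5 and 2.26 CPM.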

How the results depend on the processing

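Between the pools, 319 genes became 484 with no filter on low counts, 37 with the mice of 3 months only and 200 with the single libraries added, and 219 to 335 with a mouse left out. For the interaction, 57 became 143 with DESeq2, 148 with no filter, 31 without TMM and 422 with at least 3 of the 4 markers, and 29 to 96 with a mouse left out. For caloric restriction, 125 became 299 with no filter, 58 with at least 20 cells per mouse, 82 with cells of mixed markers left out and 61 in the diet pool alone, and 54 to 133 with a mouse left out. Age gave 54 with no filter, 11 with at least 20 cells and 0 to 1 with a mouse left out. Rapamycin gave 6 with DESeq2, 86 with no filter, 36 with at least 20 cells, 1 with mixed cells left out and 0 to 1 with a mouse left out. For age and rapamycin, the limit of 20 cells kept only Y2, 20C2, 28R1 and 28R2. Both treated mice were then of 28 months and both untreated mice younger, so age and treatment were nearly confounded. High fat gave 25 with no filter, 1 with at least 20 cells, 1 in the pool alone and 0 to 3 with a mouse left out. Low protein gave 29 with no filter, 1 with at least 20 cells, 1 with fibroblast-marked cells left out, 1 with mixed cells left out and 0 to 3 with a mouse left out. The share difference between the pools stayed between -12.2 and -9.35 points and r with age between -0.492 and -0.157 with a mouse left out. With epithelial cells as the denominator, the share difference was -40.4 points and r turned to 0.241. F over the diets ran from 0.462 to 37.4, the latter without Ctrl2. Beside secretory cells, 987 genes were higher and 442 lower in every mouse with the products left out. Krt17 was detected in 84.4% of diet pool cells at 2000 UMIs. For the genes named, 839 values with a mouse left out and 575 under other settings kept direction and call, 21 and 37 no longer passed, and 0 reversed. The values with a mouse left out include the fits without CR1 or CR2, from which no call is read. The cause of these changes was not tested. Replicate numbers did not pair the mice (correlations -0.152 to 0.118 in the aging pool and -0.0924 to 0.184 in the diet pool), and with a replicate block caloric restriction gave 139 genes. The shallowest mouse in the fits, Ctrl2, gave 98812 basal UMIs.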
